A study of Caenorhabditis elegans with 24 samples.

Results

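The heat change of translational efficiency was measured in wild-type (WT, strain N2) adult Caenorhabditis elegans, as the change of ribosome footprints between 20 and 37 °C minus the change of mRNA over the same genes. Ribosome profiling counts the stretches of mRNA covered by ribosomes, and mRNA sequencing counts the transcripts themselves. The 12 WT libraries of the 24 in the series were used, 3 for each assay at each temperature. The other 12 come from a strain deleted for C38D4.9, the gene named metl-5, at the same temperatures. How long the worms were kept at 37 °C is not given in the sources used here, nor is whether the replicates were separate cultures, so every p-value measures the spread between these libraries only. Whole worms were measured, so fewer cells of a type and less RNA per cell cannot be told apart.

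Translational efficiency rises when a transcript carries more ribosomes than before for its amount, and falls when its footprints do not follow its mRNA. Cells under heat stress are known to reduce protein synthesis broadly while making chaperones, the proteins that hold or refold damaged proteins. A ratio taken within libraries does not show a drop in all translation: all changes below are relative to the other transcripts of the same library. A ribosome that has stopped on a transcript leaves a footprint too.

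WT mRNA libraries held 15529549 to 16669407 gene counts and footprint libraries 12846631 to 19012050 at 20 °C but 4410194, 10947947 and 6474264 at 37 °C. Footprint library 2 at 37 °C stood between the temperatures: across genes its log2 levels correlated at 0.980 with footprint library 2 at 20 °C and at 0.936 and 0.931 with the libraries of its own group. Footprint library 2 at 20 °C and library 3 at 37 °C also held 147 and 27 counts of cTel55X.1, which had 0 counts in the other WT libraries and 25 to 383 in every mutant library. For all genes and for some lists, medians are given with and without these 3 libraries. Leaving them out leaves only library 1 in the heated footprint group.

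Of 13322 genes with enough counts, translational efficiency was called changed in 1220, 9.16% of those tested (edgeR quasi-likelihood test, Benjamini-Hochberg adjusted p under 0.05). It was higher at 37 °C in 660 genes (4.95%) and lower in 560 (4.2%), and the median gene moved by -0.05 on the log2 scale. In the same fit mRNA was called changed in 1789 genes (13.4%), 1046 higher (7.85%) and 743 lower (5.58%). Footprints were called changed in 889 genes (6.67%), 614 higher (4.61%) and 275 lower (2.06%). Taking the ratio of footprint to mRNA level in same-numbered libraries, all 3 ratios at 37 °C lay above all 3 at 20 °C in 2357 genes (17.7%) and below them in 2569 (19.3%).

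The count of called genes depended on single libraries, while no called gene changed direction in any fit. Leaving out footprint library 2 at 37 °C raised it to 2492 genes, 1133 higher and 1359 lower, with 1215 of the 1220 calls kept. Leaving out an mRNA library at 20 °C gave 1708 (library 1), 285 (library 2) or 355 (library 3). At 37 °C it gave 248 (library 1), 1503 (library 2) or 238 (library 3). Leaving out a footprint library at 20 °C gave 316 (library 1), 985 (library 2) or 471 (library 3). Leaving out either of the other footprint libraries at 37 °C gave 701 (library 1) or 336 (library 3). A core of 203 genes, 112 higher and 91 lower, passed in all 12 fits that left out 1 library. The split also moved with the scaling of libraries: by library totals alone the median gene shifted by 0.53, and 1455 genes were called higher and 266 lower. Without all 3 footprint libraries named above, library 1 was the only heated footprint library, and the median gene moved by -0.23. In that library 34.8% of reads were unmapped, against 2.22 to 6.78% in the other WT footprint libraries. Values from this setting therefore rest on a single heated footprint library.

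The calls of higher efficiency fell into several patterns. Footprints rose with no call for mRNA in 238 of the 660 genes, mRNA fell with no call for footprints in 208, and in 36 genes mRNA fell while footprints rose. Neither part passed its own test in 176. Of the 560 genes with lower efficiency, mRNA rose with no call for footprints in 315, footprints fell alone in 58, and in 17 mRNA rose while footprints fell. Neither was called in 162. Efficiency is the difference of the footprint and mRNA changes in the same libraries, so these counts describe how it came about and are no separate evidence for it. By contrast, 149 genes rose in both mRNA and footprints with no call for efficiency, the pattern of the strongly induced heat shock genes.

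**Figure D1:**
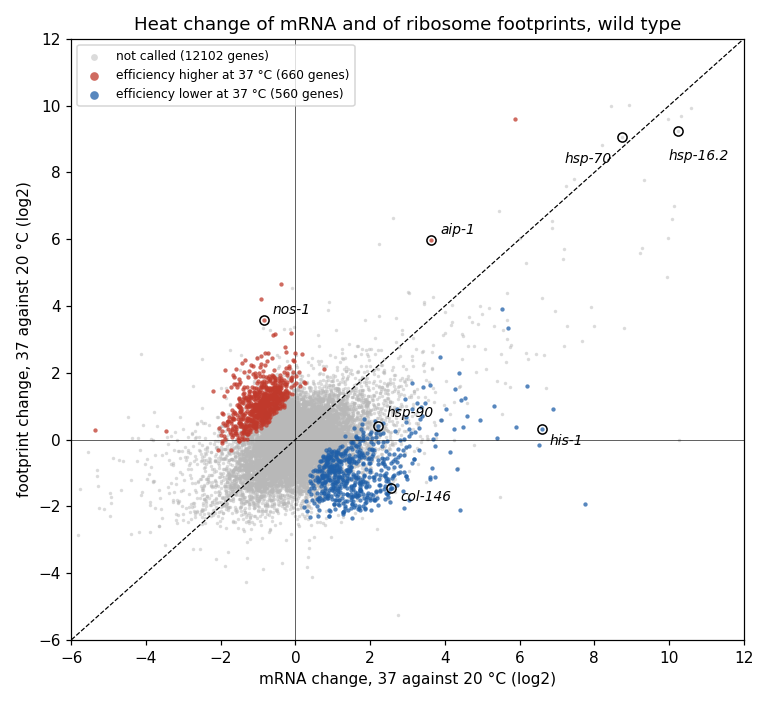
Heat change of mRNA (x axis, log2 of 37 over 20 °C) against heat change of footprints (y axis, log2) for each tested gene in the WT libraries, with the 660 genes of higher translational efficiency in red, the 560 of lower efficiency in blue and the other 12102 in grey. On the dashed diagonal both change equally. hsp-70 and hsp-16.2 lie close to it at large changes of both, while col-146 and hsp-90 lie below it and nos-1 and aip-1 above it; 7 genes lie outside the axes.

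Heat shock chaperones, the textbook answer to 37 °C, rose in both mRNA and footprints. Of 36 tested members 24 rose in mRNA and 19 in footprints, with median changes of 1.80 and 1.56 on the log2 scale. All 3 ratios at 37 °C lay below those at 20 °C in 15 members, beside 19.3% of all genes, and above them in 2, beside 17.7%. Their translational efficiency had a median change of 0.16, which ran from -0.27 to 0.16 in fits without 1 library. By edgeR 3 members fell and 0 rose (6 lower and 3 higher at an unadjusted p under 0.05, 6 lower and 0 higher by DESeq2). With limma on ratios the median was -0.29, with 12 lower and 0 higher calls. With libraries scaled by totals it was 0.68, with 2 lower and 2 higher. Without both libraries numbered 2 at 37 °C it was 0.38, with 4 lower and 2 higher. Summed over the list, the scaled mRNA level went from between 6774 and 9816 CPM (counts per 1000000 gene counts of a library, scaled between libraries with TMM) in the 20 °C libraries to between 33249 and 37123 at 37 °C. The summed footprint level went from between 15949 and 20295 to between 39482 and 71029 CPM, lowest at 37 °C in library 2.

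hsp-70, a heat-inducible member of the HSP70 chaperones (chromosome I, 9320325 to 9322519, minus strand), had mRNA levels of 5.69, 3.75 and 9.73 CPM at 20 °C and 3278, 2401 and 2573 CPM at 37 °C. Its footprint levels were 30.7, 31.9 and 20.0 CPM at 20 °C and 15457, 6391 and 22577 CPM at 37 °C. Both assays were far apart between temperatures, yet the ratios of footprint to mRNA overlapped. The change of efficiency was 0.32 ± 0.61 on the log2 scale (SE, 3 libraries per group; edgeR adjusted p = 0.809), and leaving out single libraries moved it from -0.16 to 0.65. hsp-70 overlaps uggt-2 on the other strand, and mRNA counts are blind to strand.

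hsp-16.2, a small heat shock protein that binds unfolded proteins, went from 4.15, 1.64 and 3.05 CPM of mRNA to 3756, 3646 and 3201 CPM. Its footprints went from 5.94, 6.87 and 4.70 CPM to 4896, 1886 and 3771 CPM. The mRNA libraries at 37 °C were alike, and footprint library 2 was the low one. The efficiency change was -0.99 ± 0.54 (edgeR adjusted p = 0.266), and it did not pass in any fit run. hsp-16.1 and hsp-16.48 are duplicated genes, each with its own near-identical copy. Their footprint counts were 0 at 20 °C and at most a mean of 0.267 CPM at 37 °C, so their ratios are uncertain.

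The members that fell were hsp-90, dnj-12 and dnj-19, an HSP90 and J-domain co-chaperones of the HSP70 system. hsp-90 (chromosome V, 14684918 to 14688545, plus strand) had 1544, 1759 and 1915 CPM of mRNA at 20 °C and 7055, 7815 and 9097 CPM at 37 °C. Its footprints were 4391, 5557 and 5809 CPM at 20 °C and 6316, 7564 and 6852 CPM at 37 °C. Thus mRNA was wholly apart between temperatures by a wide margin while footprints stood apart by little. The log2 change was 2.20 ± 0.29 for mRNA, 0.40 ± 0.28 for footprints and -1.80 ± 0.39 for efficiency (edgeR adjusted p = 0.0160 for efficiency). Library 2 gave the same picture as the others here, and the call was lost only without mRNA library 3 at 37 °C (edgeR adjusted p = 0.0526). hsp-90 overlaps C47E8.4 and dnj-12 overlaps tmem-107 on the other strand. The efficiency of dnj-12 changed by -1.89 ± 0.40 and that of dnj-19 by -1.66 ± 0.41, and the latter passed in 5 of the 12 fits without 1 library.

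The CCT chaperonin, the ring that folds actin and tubulin, was called higher in mRNA and not in footprints. Its summed mRNA was 1268, 1557 and 1483 CPM at 20 °C and 2985, 3659 and 4241 CPM at 37 °C. Summed footprints were 3860, 5150 and 5003 CPM at 20 °C and 5217, 5824 and 5678 CPM at 37 °C. The heated libraries thus lay above the others in both assays, by little in footprints. All 8 tested subunits rose in mRNA by edgeR, with a median of 1.26, while 0 were called in footprints (1 higher at an unadjusted p under 0.05 and 1 by DESeq2), and all 8 had ratios at 37 °C below those at 20 °C. Their median efficiency change was -1.07, and cct-4 and cct-1 passed. cct-4 had 180, 210 and 121 CPM of mRNA at 20 °C and 430, 533 and 596 CPM at 37 °C, while its footprints stayed within 501, 688 and 698 CPM and 477, 706 and 514 CPM. Its footprints therefore overlapped fully, and efficiency fell by 1.76 ± 0.41 on the log2 scale (edgeR adjusted p = 0.0198). Between 0 and 4 subunits passed when 1 library was left out, 0 without mRNA library 3 of either temperature or footprint library 3 of either temperature. With libraries scaled by totals 0 passed.

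Genes of the endoplasmic reticulum (ER) folding machinery gave calls in both directions. Of 28 tested members, 7 fell (25%, beside 4.2% of all genes) and 2 rose (7.14%, near the 4.95% of all genes). The fallers were the protein disulfide isomerases pdi-1, pdi-2, pdi-3 and pdi-6, the ER HSP90 enpl-1, the calcium-binding chaperone calreticulin crt-1, and pek-1, the kinase PERK that slows translation initiation in ER stress. The risers, named after their values were seen, were ire-1, the sensor that splices xbp-1 mRNA, at 1.72 ± 0.45, and the oxidase ero-1 at 1.33 ± 0.40. Between 0 and 2 members rose in fits without 1 library. The count was 0 without mRNA library 2 or 3 or footprint library 1 or 3 at 20 °C. It was also 0 without mRNA library 1 or 3 or footprint library 1 or 3 at 37 °C. In the same fits 2 to 12 members fell, 12 without footprint library 2 at 37 °C and 2 without mRNA library 2 at 20 °C or 3 at 37 °C. With libraries scaled by totals 4 members fell and 4 rose, and the list's median of -0.58 became -0.01.

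pek-1 (chromosome X, 11410176 to 11414887, minus strand) had 4.44, 4.87 and 3.62 CPM of mRNA at 20 °C and 24.1, 40.9 and 41.9 CPM at 37 °C, against footprints of 17, 20.7 and 16 CPM and 20.3, 34.6 and 11.4 CPM. Its mRNA groups stood apart and its footprint groups overlapped. Efficiency fell by 2.74 ± 0.53 on the log2 scale (edgeR adjusted p = 0.0110) and passed in every fit without 1 library, as did crt-1 at -2.20 ± 0.46. crt-1 overlaps smut-1 on the other strand. In contrast hsp-4, the ER HSP70 and standard marker of the unfolded protein response, rose in both assays. Its mRNA went from 128, 167 and 120 CPM to 1351, 1792 and 1207 CPM and its footprints from 468, 475 and 494 CPM to 3594, 2649 and 2638 CPM. Its efficiency change of -0.77 ± 0.39 was not called (edgeR adjusted p = 0.238). Neither was that of xbp-1, a transcription factor of the response (0.01), nor that of atf-4 (0.23), known for upstream reading frames that raise its translation when initiation is slowed.

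In mitochondria the HSP70 hsp-6 fell by 2.10 ± 0.43 in efficiency (edgeR adjusted p = 0.0126). Its mRNA was 188, 232 and 147 CPM at 20 °C and 703, 749 and 1245 CPM at 37 °C, with footprints of 1689, 1855 and 2130 CPM and 1849, 2017 and 2464 CPM. The footprint groups overlapped and the mRNA groups did not, and the call held in all 12 fits without 1 library. The mitochondrial J protein dnj-10 rose by 1.29 ± 0.37 (edgeR adjusted p = 0.0415), a call that held in 2 of those 12 fits. The other 11 tested mitochondrial stress genes were not called.

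A pair of genes rose in mRNA, in footprints and in efficiency at once, aip-1 and ZC21.10. aip-1, an arsenite-inducible AN1 zinc finger protein that works with the proteasome (chromosome V, 14012333 to 14013644, plus strand), had 57.8, 81.8 and 120.4 CPM of mRNA at 20 °C and 1183, 1051 and 992 CPM at 37 °C. Its footprints were 20.4, 22.7 and 18.6 CPM at 20 °C and 1655, 775 and 1475 CPM at 37 °C. Footprint library 2 was again the lowest at 37 °C and still far above 20 °C. mRNA rose by 3.64 ± 0.36 and footprints by 5.98 ± 0.41, so efficiency rose by 2.35 ± 0.47 (edgeR adjusted p = 0.0120) and did so in every fit without 1 library. In a fit of all 24 libraries its WT value was 2.35 with an edgeR adjusted p = 0.130. ZC21.10, to which no role is given here, rose by 3.72 ± 1.09 from near 0 CPM at 20 °C, so its size is poorly determined. Of 32 proteasome subunits 0 were called in either direction by edgeR, with 2 lower at an unadjusted p under 0.05 and 1 lower by DESeq2. Their median was -0.56, and 19 had all ratios at 37 °C below those at 20 °C (19.3% of all genes did).

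**Figure D2:**
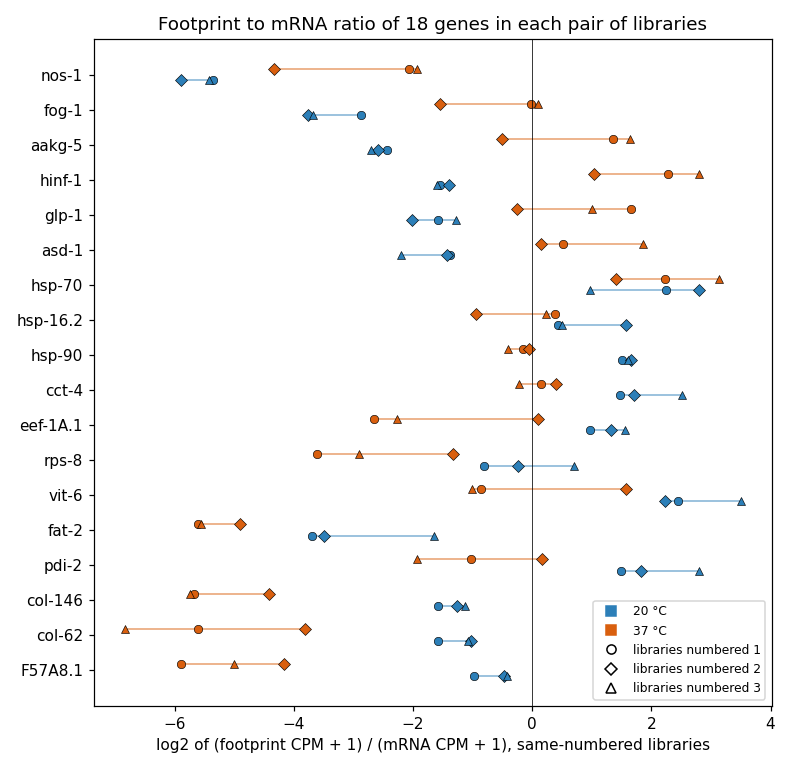
Log2 ratio of footprint to mRNA level (scaled CPM plus 1) in each same-numbered pair of WT libraries at 20 and 37 °C for 18 genes; circles, diamonds and triangles are libraries 1, 2 and 3. hsp-70 overlaps between temperatures, nos-1, fog-1, aakg-5 and hinf-1 are higher at 37 °C in all 3 pairs, and col-146, col-62 and F57A8.1 are lower; the diamond at 37 °C often lies nearest to the 20 °C points.

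Cuticle collagens, which build the worm's outer coat and are secreted by the epidermis, gave more calls than any other of the 34 lists. Of 134 tested of 175 in the files, 82 fell in efficiency (61.2%, against 4.2% of all genes) and 0 rose by edgeR (1 at an unadjusted p under 0.05 and 1 by DESeq2), with a median of -2.99. Their mRNA rose in 73 members, with a median of 1.81, and their footprints fell in 26, with a median of -1.23. All 3 ratios at 37 °C lay below those at 20 °C in 123 members. The summed mRNA level was 72877, 36814 and 40387 CPM at 20 °C and 174500, 78672 and 125029 CPM at 37 °C, while summed footprints went from 65136, 44220 and 48455 CPM to 11330, 27643 and 6099 CPM. Library 2 at 37 °C had the least mRNA and the most footprints of its group, and the groups of either assay did not overlap.

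Among them col-146 (chromosome V, 9629943 to 9631012, plus strand) had 131, 47.4 and 69.1 CPM of mRNA at 20 °C and 731, 312 and 425 CPM at 37 °C. Its footprints were 43.4, 19.1 and 31 CPM and then 13.3, 13.7 and 6.95 CPM. Every heated library was above the others in mRNA and below them in footprints. Efficiency fell by 4.03 ± 0.62 on the log2 scale (edgeR adjusted p = 0.00754). col-62 changed by -4.43 ± 0.75, col-161 by -4.15 ± 0.74 and col-145 by -4.07 ± 0.65. In all 12 fits without 1 library 40 collagens passed; the counts ran from 40 without mRNA library 1 at 37 °C to 100 without mRNA library 1 at 20 °C. They were 42 without mRNA library 2 and 44 without library 3 at 20 °C, 44 without mRNA library 3 at 37 °C, 47 without footprint library 1 at 20 °C and 54 without footprint library 3 at 37 °C. Scaled by library totals 77 fell. The collagen median was -3.36 without the 3 footprint libraries doubted above.

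The components of the ribosome itself moved in the same direction. Of 77 cytosolic ribosomal proteins 16 fell in efficiency (20.8%) and 0 rose by edgeR, with a median of -1.39. At an unadjusted p under 0.05 58 were lower and 0 higher, and by DESeq2 46 and 0. Summed mRNA was 258699, 196496 and 230072 CPM at 20 °C and 478641, 263465 and 395669 CPM at 37 °C, and summed footprints went from 110711, 138492 and 153270 CPM to 57439, 120070 and 67570 CPM. Library 2 at 37 °C stood close to, or within, the 20 °C range in both assays. rps-8, of the small subunit, had 4057, 3280 and 2096 CPM of mRNA and then 9771, 5501 and 8174 CPM, with footprints of 2311, 2779 and 3393 CPM and then 799, 2196 and 1093 CPM. It changed by -2.37 ± 0.56 in efficiency (edgeR adjusted p = 0.0200), and the stalk protein gene rla-0 by -2.32 ± 0.54.

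How many ribosomal proteins passed depended on the library left out. The count was 62 without footprint library 2 at 37 °C, 34 without mRNA library 2 at 37 °C, and 7 without footprint library 2 at 20 °C. It was 2 without footprint library 1 of either temperature. It was 0 without mRNA library 2 or 3 at 20 °C, mRNA library 1 or 3 at 37 °C, or footprint library 3 of either temperature. Scaled by library totals 6 fell and 1 rose, and the list's median was -1.98 without the 3 doubted footprint libraries. Mitochondrial ribosomal proteins, made by nuclear genes but working on mitochondrial transcripts, had a median of -0.02, with 1 of 69 lower (1.45%, under the 4.2% of all genes).

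Elongation factors, which carry the ribosome along the transcript, had a median of -1.60, and 4 of 15 fell: eef-1A.1, eef-1G, eef-2 and the mitochondrial tufm-1. eef-1A.1, which delivers charged tRNA, had 13686, 17183 and 16918 CPM of footprints at 20 °C and 2872, 13184 and 4246 CPM at 37 °C. Library 2 was thus near the 20 °C values and the other heated libraries well below them. Its mRNA was 6974, 6864 and 5769 CPM and then 18177, 12378 and 20516 CPM, and efficiency changed by -2.62 ± 0.64 (edgeR adjusted p = 0.0231). Between 0 and 8 members passed without 1 library, 8 without footprint library 2 at 37 °C. The count was 0 without mRNA library 2 or 3 or footprint library 1 or 3 at 20 °C, and 0 without mRNA library 1 or 3 or footprint library 3 at 37 °C. Scaled by library totals 1 fell, and the list's median was -1.03. eef-1A.1 overlaps F31E3.12 and eef-1G overlaps F17C11.22 on the other strand.

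Initiation factors, which load the ribosome, differed from these in their median change, which was 0.05. By edgeR 1 of 36 fell (2.78%, under the 4.2% of all genes), the eIF3 subunit eif-3.D (-1.45 ± 0.37). At an unadjusted p under 0.05 8 were lower and 4 higher, and by DESeq2 4 and 0. All 3 ratios at 37 °C lay below those at 20 °C in 14 members, beside 19.3% of all genes and 25 of 77 ribosomal proteins. They lay above in 5 members, beside 17.7% of all genes. The median was 0.19 without footprint library 2 at 37 °C and ran down to -0.15 without footprint library 3 at 37 °C. No test between the lists was run. Of 23 regulators of translation 3 fell, pek-1, abcf-2 and abcf-3, with a median of 0.39. Among 30 tRNA synthetases 1 fell, qars-1, and 1 rose, nars-2. Each is 3.33%, under the 4.2% lower and 4.95% higher of all genes. The list's median of -0.29 became 0.25 when libraries were scaled by totals. Of the 12 fits without 1 library, the call was lost in 8 for eif-3.D and abcf-3, in 6 for abcf-2 and in 9 for qars-1 and nars-2, and in 0 for pek-1.

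**Figure D3:**
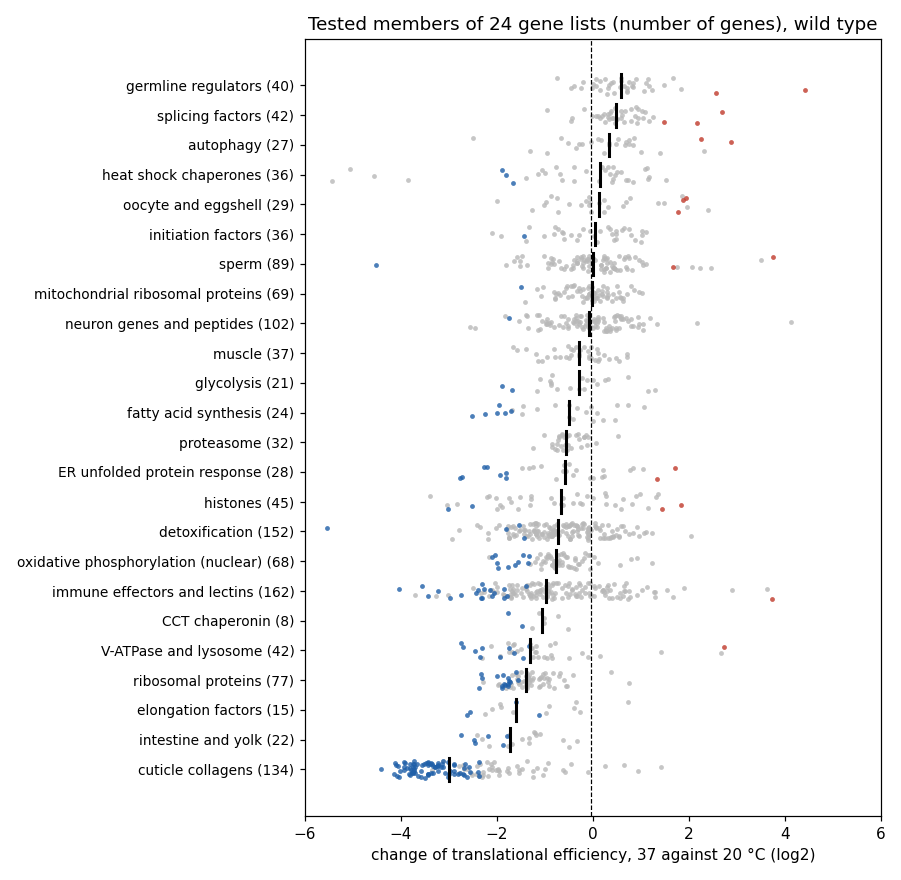
Heat change of translational efficiency (log2) of every tested member of 24 gene lists in the WT libraries. Each point is a gene, red if called higher and blue if called lower. Black bars are list medians and the dashed line is the median of all genes (-0.05). Cuticle collagens lie lowest as a list with a median of -2.99, the germline list lies above the line, and 4 members lie outside the axis.

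Genes of the intestine, the worm's organ of digestion, storage and yolk making, mostly had lower values. Of 22 tested members 6 fell and 0 rose by edgeR (14 and 0 at an unadjusted p under 0.05, 11 and 0 by DESeq2), all 22 values were negative, and the median was -1.72. The footprints were lower too: 7 members fell in footprints, with a median of -1.44, and 0 were called in mRNA (3 higher and 1 lower at an unadjusted p under 0.05, 2 and 1 by DESeq2). The yolk protein gene vit-6 (chromosome IV, 8261157 to 8266459, plus strand) had footprints of 16138, 12908 and 14682 CPM at 20 °C and 2475, 10105 and 2914 CPM at 37 °C, and mRNA of 2957, 2746 and 1297 CPM and then 4468, 3395 and 5904 CPM. Its efficiency changed by -2.47 ± 0.68 (edgeR adjusted p = 0.0349), and the call held in 4 of the 12 fits without 1 library. In those fits 0 to 18 intestinal genes fell, 18 without footprint library 2 at 37 °C and 0 without mRNA library 2 at 20 °C or mRNA library 1 or 3 at 37 °C. Scaled by library totals 1 fell, and without the 3 doubted footprint libraries the list's median was -2.34.

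The proton pump and proteases of the lysosome gave 10 lower and 1 higher call among 42 members, with a median of -1.31, and 13 fell in footprints. asp-3, an aspartic protease, had footprints of 854, 532 and 748 CPM at 20 °C and 153, 441 and 124 CPM at 37 °C beside mRNA of 1141, 526 and 713 CPM and 2102, 1506 and 1818 CPM. The heated libraries lay below the others in footprints and above them in mRNA, and efficiency changed by -2.76 ± 0.61 (edgeR adjusted p = 0.0167). The V-ATPase gene vha-20 changed by -2.71 ± 0.54. The riser was cup-5, a lysosomal cation channel of the mucolipin family, at 2.74 ± 0.56, which overlaps R13A5.11 and R13A5.15 on the other strand. Lower calls ran from 1, without mRNA library 2 at 20 °C or mRNA library 1 or 3 at 37 °C, to 31 without footprint library 2 at 37 °C, and were 2 with libraries scaled by totals.

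Enzymes of fatty acid synthesis and desaturation fell in 6 of 24 cases, fat-1, fat-2, fat-3, fat-6, let-767 and pod-2, with a list median of -0.51. That median was -1.90 without footprint library 2 at 37 °C, -0.24 without mRNA library 3 at 37 °C and 0.03 with libraries scaled by totals. fat-2, the desaturase that puts a double bond into oleic acid, had mRNA of 207, 193 and 102 CPM at 20 °C and 663, 401 and 875 CPM at 37 °C. Its footprints were 15.1, 16.3 and 32.1 CPM and then 12.5, 12.4 and 17.7 CPM, and these groups overlapped while the mRNA groups did not. Efficiency changed by -2.52 ± 0.54 (edgeR adjusted p = 0.0144), and the call was lost without mRNA library 3 at 37 °C. Without 1 library 0 to 11 of the enzymes fell, 0 without that library and 11 without footprint library 2 at 37 °C.

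Nuclear genes of oxidative phosphorylation fell in 10 of 68 cases, with a median of -0.78. Among them were the cytochrome c1 gene cyc-1 (-2.09 ± 0.46), the complex I gene nuo-5 (-2.03) and the ATP synthase gene atp-3 (-2.0). cyc-1 overlaps C54G4.7 on the other strand. Their count ran from 0 without mRNA library 3 at 37 °C to 20 without footprint library 2 at 37 °C. Secreted immune effectors, a list of 349 genes of C-type lectins, lysozymes, saposin-like proteins and antimicrobial peptides of which 162 were tested, fell in 20 cases and rose in 1, with a median of -0.97. The riser was clec-222 (3.74 ± 1.08), whose call was lost in 9 of the 12 fits without 1 library. The saposin-like spp-8 (-3.56 ± 0.66) and the lectin clec-84 (-3.44 ± 0.62) passed in every fit without 1 library, and clec-84 overlaps Y54G2A.15 on the other strand. Their count of lower calls ran from 6 without mRNA library 1 at 37 °C to 46 without footprint library 2 at 37 °C.

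**Figure D4:**
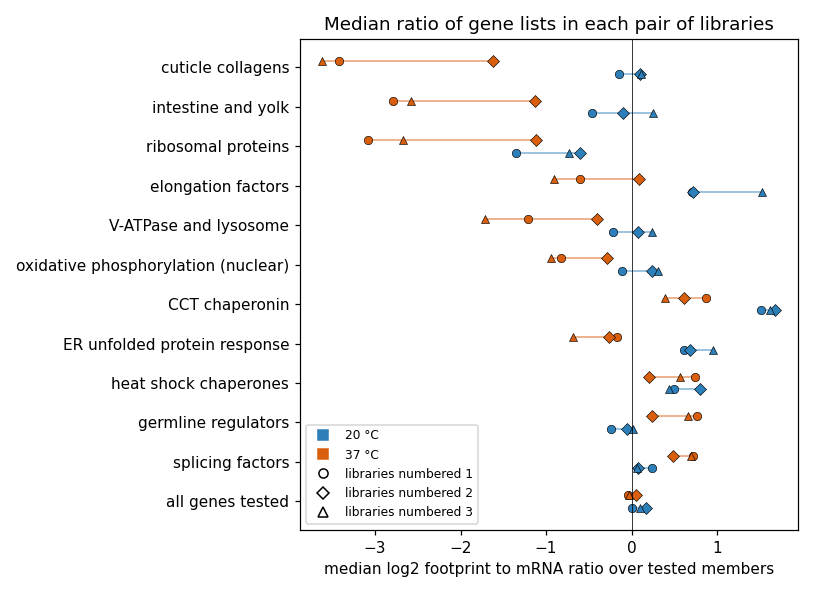
Median log2 ratio of footprint to mRNA level of 11 gene lists and of all tested genes in each same-numbered pair of WT libraries at 20 and 37 °C. In cuticle collagens the pair medians go from -0.15, 0.10 and 0.11 at 20 °C to -3.42, -1.62 and -3.61 at 37 °C, and in ribosomal proteins from -1.35, -0.60 and -0.74 to -3.08, -1.12 and -2.68; library 2 at 37 °C lies between the temperatures in collagens and within the 20 °C range in ribosomal proteins, and in all genes they stay between -0.04 and 0.17.

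Outside the lists, F57A8.1 (chromosome V, 10037340 to 10048726, plus strand) had one of the larger falls. Its mRNA was 8.59, 6.77 and 6.79 CPM at 20 °C and 129, 76.0 and 63.3 CPM at 37 °C, and its footprints 3.88, 4.63 and 4.77 CPM and then 1.19, 3.30 and 1.01 CPM. Both assays stood apart between temperatures in opposite directions. Efficiency fell by 4.77 ± 0.57 (edgeR adjusted p = 0.00431), and the call passed in every fit without 1 library. ncx-1, a sodium-calcium exchanger of the plasma membrane, changed by -3.64 ± 0.62 with mRNA called higher and footprints called lower, and overlaps sec-23 on the other strand. The replication-dependent histone gene his-1 had the largest fitted fall among the 12 falls named by size (-6.30 ± 1.08), but its mRNA was 0.237, 0.103 and 0 CPM at 20 °C and histone genes have near-identical copies, so the size is not well determined.

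Genes that gained efficiency included regulators of the germ line, the tissue that makes sperm and oocytes. nos-1, a homologue of the translational repressor Nanos (chromosome II, 10951592 to 10953165, minus strand), had mRNA of 45.8, 76.0 and 72.5 CPM at 20 °C and 28.2, 53.4 and 26.2 CPM at 37 °C. Its footprints were 0.144, 0.299 and 0.713 CPM at 20 °C and 5.97, 1.69 and 6.08 CPM at 37 °C. Footprints were thus almost absent at 20 °C and present in every heated library, least in library 2, while the mRNA groups overlapped. Efficiency rose by 4.42 ± 0.76 on the log2 scale (edgeR adjusted p = 0.00808) and did so in all 12 fits without 1 library. nos-1 overlaps gst-5 on the other strand, and the part of gst-5 in its mRNA count was not tested.

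fog-1, a CPEB-type RNA-binding protein needed for sperm fate (chromosome I, 3211046 to 3217267, plus strand), had mRNA of 15.9, 29.8 and 26.3 CPM at 20 °C and 6.66, 12 and 9.03 CPM at 37 °C. Its footprints went from 1.29, 1.27 and 1.14 CPM to 6.57, 3.55 and 9.70 CPM. The heated libraries were the lower ones in mRNA and the higher ones in footprints, with no overlap in either. Efficiency rose by 3.76 ± 0.60 (edgeR adjusted p = 0.00804). glp-1, the Notch receptor that keeps germline stem cells dividing, had footprints of 22.9, 27.8 and 22.3 CPM and then 102, 50.1 and 108 CPM, beside overlapping mRNA levels of 70.4, 116 and 55.6 CPM and 31.7, 59.8 and 53.3 CPM. It rose by 2.57 ± 0.50 in efficiency (edgeR adjusted p = 0.0110) and overlaps ZK507.1 on the other strand.

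Over the whole list of 40 germline genes 2 rose (5%, beside 4.95% of all genes), glp-1 and nos-1, 0 fell, and 34 had positive values with a median of 0.59. In the embryo list 1 of 15 rose (6.67%, near the 4.95% of all genes), again glp-1, with a median of 0.96. Oocyte and eggshell genes rose in 3 of 29 cases (10.3%, beside 4.95% of all genes), with a median of 0.12. These were daz-1 (1.88 ± 0.43), mbk-2 (1.77 ± 0.41) and puf-6 (1.94 ± 0.53). Of the 12 fits without 1 library the call was lost in 6 for daz-1 and mbk-2 and in 7 for puf-6, and 0 members rose without mRNA library 2 or 3 or footprint library 1 at 20 °C or mRNA library 1 or 3 at 37 °C. Without footprint library 2 at 37 °C 4 rose and 6 fell, and without the 3 doubted footprint libraries the median was -0.25. daz-1 and puf-6 encode RNA-binding proteins and mbk-2 a kinase of the oocyte-to-embryo transition that overlaps F49E11.2 on the other strand. Sperm genes had a median of 0.00 beside medians of -0.85 for mRNA and -0.87 for footprints, and 22 of 89 fell in mRNA. In efficiency fog-1 and spe-39 rose (2.25%, under the 4.95% of all genes) and spe-36 fell (1.12%, under the 4.2% of all genes). The call of spe-39 was lost in 9 of the 12 fits without 1 library, without footprint library 2 at 37 °C 4 sperm genes rose and 9 fell, and the median was -0.60 without the 3 doubted footprint libraries. The summed mRNA level of the sperm list was 14546, 6771 and 17529 CPM at 20 °C and 7331, 6054 and 5981 CPM at 37 °C, and its part in the other results was not tested.

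Among the 12 largest rises named by rule, aakg-5, hinf-1, C48B4.9, C16A3.2, rbmx-2 and fog-1 had mRNA called lower and footprints called higher. ZC53.1 (5.14 ± 0.78), bath-19 (5.04 ± 0.85), gldi-6 and nos-1 had footprints called higher and no call for mRNA. In clec-222 and Y4C6A.3 mRNA was called lower with no call for footprints. The efficiency call of clec-222 was lost in 9 of the 12 fits without 1 library. aakg-5, a gamma subunit of AMP-activated kinase (chromosome II, 9971035 to 9975125, minus strand), went from 49.4, 68.7 and 69.1 CPM of mRNA to 17.4, 29.2 and 23.1 CPM and from 8.29, 10.5 and 9.76 CPM of footprints to 46.4, 20.3 and 74.1 CPM. No heated library overlapped the others in either assay. Efficiency rose by 3.72 ± 0.55 (edgeR adjusted p = 0.00738). hinf-1 went from 58.3, 113 and 84.0 CPM of mRNA to 21.5, 35.4 and 27.6 CPM and from 19.3, 42.2 and 26.9 CPM of footprints to 108, 73.5 and 197 CPM, a rise of 3.69 ± 0.56 in efficiency. nhr-23, a nuclear receptor needed for moulting, rose by 3.38 ± 0.63, C48B4.9 by 3.99 ± 0.58 and rbmx-2 by 3.50 ± 0.59.

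Splicing factors gave 3 higher and 0 lower calls among 42 (7.14%, near the 4.95% of all genes), with a median of 0.49 and positive values in 37. asd-1, an RNA-binding regulator of alternative splicing, had footprints of 13.6, 22.9 and 17.2 CPM and then 42.6, 31.6 and 72.2 CPM, and mRNA of 36.8, 63.6 and 83.2 CPM and then 29.6, 28.4 and 19.2 CPM. Neither assay overlapped between temperatures, and efficiency rose by 2.70 ± 0.52 (edgeR adjusted p = 0.0103). prp-17 rose by 2.18 ± 0.47 and mog-1 by 1.48 ± 0.43, and the call of mog-1 was lost in 9 of the 12 fits without 1 library. The count ran from 1, without mRNA library 1 or 3 at 37 °C, to 6 without footprint library 2 at 37 °C, and was 12 with libraries scaled by totals. asd-1 overlaps pelo-1 on the other strand.

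In autophagy, the pathway that delivers cell contents to the lysosome, 2 of 27 genes rose (7.41%, near the 4.95% of all genes) and 0 fell, with a median of 0.35. atg-18, a phosphoinositide-binding protein of the forming autophagosome, fell in mRNA from 95.4, 140 and 192 CPM to 27.2, 56.7 and 36.4 CPM while its footprints were 36.9, 44.8 and 26.0 CPM and then 46.4, 51.5 and 47.9 CPM. The mRNA groups were apart by a wide margin and the footprint groups by little. Efficiency rose by 2.26 ± 0.46 (edgeR adjusted p = 0.0126). epg-4 rose by 2.88 ± 0.49 with mRNA lower and footprints higher. Both passed in all 12 fits without 1 library, and 3 other members fell without footprint library 2 at 37 °C.

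Muscle genes had 0 calls among 37 by edgeR (4 lower at an unadjusted p under 0.05, 2 lower by DESeq2), with 11 members rising in mRNA. Their median of -0.28 became 0.32 with libraries scaled by totals and 0.15 without the 3 doubted footprint libraries. unc-54, the major myosin heavy chain of the body wall, was at -1.67 ± 0.51 (edgeR adjusted p = 0.0516). Neuropeptide genes had 1 lower call among 102 (0.98%, under the 4.2% of all genes), nlp-24, which was lost in 8 of the 12 fits without 1 library. Their median of -0.08 became 0.47 with libraries scaled by totals. Detoxification genes had 4 lower calls among 152 (2.63%, under the 4.2% of all genes) and 0 higher, with a median of -0.73. At an unadjusted p under 0.05 25 were lower and 0 higher, and by DESeq2 10 and 0. All 3 ratios at 37 °C lay below those at 20 °C in 43 members, beside 19.3% of all genes, and above them in 6, beside 17.7%. Their lower calls ran from 1 to 17 without 1 library, 17 without footprint library 2 at 37 °C. Nuclear hormone receptors had 3 higher calls among 144 (2.08%, under the 4.95% of all genes) and 0 lower. Their median of -0.20 became 0.35 with libraries scaled by totals. Of the 3 receptors called, nhr-23 passed in all 12 fits without 1 library, while nhr-20 and nhr-12 were lost in 9 and 10. Glycolysis enzymes had 2 lower calls among 21, each lost in 9 of the 12 fits without 1 library, and their median of -0.29 became 0.30 under the same scaling.

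Genes called higher lay mostly on the autosomes. On the X chromosome 5 of 1858 tested genes rose (0.269%) against 5.73% of autosomal genes, and 107 fell (5.76%) against 3.95%. The median change was -0.44 on the X and 0.02 on the autosomes. X genes had lower levels, but in each of the upper 6 of 10 equal groups by mean level the X had the smaller share called higher, 0 to 1.05% against 2.48 to 15.1%. Across all the fits, the share of X genes called higher ran from 0.0520 to 1.1%. Among autosomes the share called higher was largest on chromosome I (8.06%) and smallest on chromosome V (3.88%). These shares are descriptions, without a test, of genes that share libraries.

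**Figure D5:**
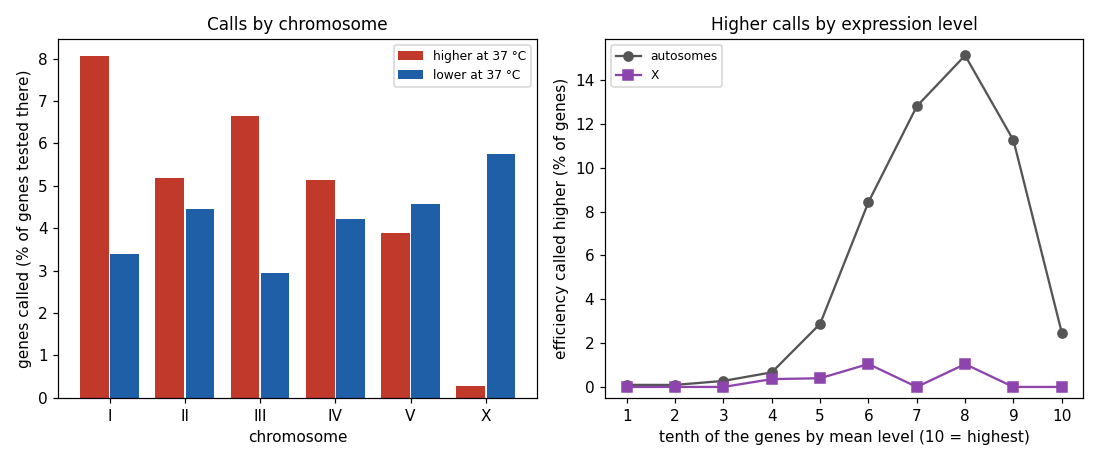
Left, the percentage of tested genes on each chromosome whose translational efficiency was called higher or lower at 37 °C in WT. Right, the percentage called higher in each of 10 equal groups of genes by mean level, for autosomes and the X; the X had 0.269% called higher in all, and the autosomal curve peaks at 15.1% in the eighth group.

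Genes called higher were also longer. Their median coding length was 1368 bases, against 963 for genes called lower and 1059 for those not called, and their median 3′ UTR was 206 bases against 115 and 124. By 3′ UTR length in 5 equal groups, the share called higher went from 1.81% in the shortest to 9.3% in the longest. By level, the highest of 10 equal groups held the most lower calls, 14.9% against 2.25% higher, and the eighth the most higher calls, 14.1%. Length moves with the calls beside level and chromosome, and its own part was not tested.

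The metl-5 mutant, which lacks a ribosomal RNA methyltransferase, gave a like picture. metl-5 itself did not pass in WT (-0.03 ± 0.52). In the mutant alone 2875 of 13284 genes were called (21.6%), 1460 higher and 1415 lower. Of the 659 genes higher in WT and tested in the mutant 643 were called higher there, and of 558 lower in WT 483 were called lower. The test of the difference between strains over all 24 libraries called 0 of 13895 genes (0%) by edgeR, with 143 at an unadjusted p under 0.05, and 0 by DESeq2, with 158. This comparison is weakened by mutant libraries: mutant footprint libraries 2 and 3 at 37 °C hold 63 and 57 counts of ZK228.3, found at 0 or 1 in the other mutant libraries. Mutant footprint library 2 at 20 °C had 5083 CPM of hsp-70, beside 25.5 and 10.8 CPM in the others of its group. These hsp-70 values are CPM without TMM scaling, unlike the WT levels above. The mutant's efficiency change for aip-1 was -0.58 ± 1.18, and the difference between strains, 2.91 ± 1.45 on the log2 scale, did not pass adjustment in edgeR.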

How the data were processed

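Raw per-gene read counts were deposited by the authors, one table per library. The submitters' processing notes name STAR and DESeq2 and give no version. Aligner options, genome build, read filters and library protocols: not given in the sources used here. Unstranded counts were used for mRNA, where about equal shares lay on either strand, and sense-strand counts for footprints. Of 19669 genes, 19332 had a symbol and 19568 a place in the WBcel235 annotation.

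The 12 WT libraries were fitted together in edgeR 4.0.16 under R 4.3.3 (quasi-likelihood, filterByExpr, TMM scaling, 1 mean per group), with Benjamini-Hochberg adjustment at 0.05. Translational efficiency was the contrast of footprint and mRNA heat changes. SEs are the log2 change over the root of F. Levels are TMM-scaled CPM, except those of hsp-70 in the mutant footprint libraries, which are unscaled, and ratios add 1 CPM. The mutant fit and the 24-library strain test used the same steps. WT libraries were fitted alone because mutant footprint libraries hold reads of other groups. The procedure was tested on simulated data. No 2 libraries of a group were duplicates.

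Members, the 34 lists and the naming rule were chosen with earlier results of these data known. The rule took the 12 largest rises and 12 largest falls among called genes with a symbol, a mean of at least 10 counts in 3 groups, a log2 CPM averaging 1 or more and ratios that do not overlap. It added up to 4 members of each list with the smallest p, 4 genes of each class of opposite calls, and hsp-70, hsp-16.2, hsp-4, xbp-1, atf-4 and metl-5. Other genes were named after their values were seen. Of the listed names 41 were not found. Alternatives were another scaling, other count filters, DESeq2 1.42.0, limma 3.58.1 on ratios, unstranded footprints, all 24 libraries, replicate blocks and each library left out. The authors' tables of strain comparisons were not used.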

Additional observations from a re-analysis of the deposited data

How the results depend on the processing

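Translational efficiency calls numbered 1220, and 1205 with RLE size factors, 1721 with library totals and 1334 without a filter. They numbered 1328 at a minimum count of 30 and 1210 with unstranded footprints. The setting without the 3 doubted footprint libraries was chosen after seeing the data. It left 1 heated footprint library, so its calls are not counted. Efficiency calls rose to 1963 with DESeq2, 2191 with all 24 libraries and 2463 with limma on ratios (1074 higher, 1389 lower). They were 2767 without both libraries numbered 2 at 37 °C, also chosen after seeing the data. Without 1 library they ran from 238 to 2492. Calls for mRNA numbered 1789, and 2720 with library totals, 2890 with all 24 libraries, 3005 without both libraries numbered 2, and 594 to 2407 without 1 library. Calls for footprints numbered 889, and 1336 without a filter, 2196 with DESeq2, 2313 with all 24 libraries, 3560 without both libraries numbered 2, and 72 to 3485 without 1 library. The cause of these moves was not tested. The strain difference stayed at 0 calls in the settings run.

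Blocking on the library pair gave 2070 efficiency calls (999 higher, 1071 lower), and blocking on the replicate number 2299 (1150 higher, 1149 lower), with 2865 for mRNA and 2296 for footprints. Same-numbered mRNA and footprint libraries deviated together with correlations of 0.67, 0.58 and 0.27 at 20 °C and 0.35, 0.096 and 0.13 at 37 °C. In 5 of these 6 mRNA and footprint pairs the best correlation was with the same number. This is a hint of pairing from the data, but no label gives it and 1 correlation was under 0.1, so the reported fit has no block.

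Among values of named genes in the other settings, 3101 kept their status, whether called or not called. A call was lost in 451 values and gained in 259. pals-16 reversed to 0.13 with limma, and hsp-70, xbp-1 and metl-5, uncalled and within an SE of 0, took values of either sign. With library totals the medians of tRNA synthetases (0.25), glycolysis (0.30), muscle (0.32), tubulin (0.15), nuclear hormone receptors (0.35), fatty acid enzymes (0.03), neuropeptides (0.47), mitochondrial ribosomal proteins (0.54), mitochondrial stress genes (0.54) and MtDNA genes (0.07) turned positive. Without the 3 doubted footprint libraries muscle turned to 0.15, oocyte genes to -0.25, sperm genes to -0.60 and initiation factors to -0.01. The shallowest library, a 37 °C footprint library, held 4410194 counts.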
